A study of Mus musculus with 4 samples.

Results

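The genes described here make, break down and carry glutamine: *Glul*, *Glud1*, *Got1*, *Got2*, *Slc1a5*, *Slc38a1* and *Slc38a2*. They are 7 of the 23920 genes of an RNA sequencing table of BMMs, macrophage-like cells grown from bone marrow, and were taken by gene symbol. The group was chosen by function and by its measured FPKM in the 4 libraries, so the levels and ratios of the 7 genes are a description and no test was made on them. FPKM counts the sequenced fragments of a transcript scaled to its length and to the size of the library. Transcripts were summed per gene.

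The study asked how STAT5, the transcription factor that signals downstream of IL-3, bears on osteoclast formation. There were 4 libraries, 1 per condition. The 3 control libraries came from *Stat5* fl/fl cells, in which loxP sites flank *Stat5a* and *Stat5b*. All 3 were kept for 24 h in M-CSF at 30 ng/mL: 1 in M-CSF alone, 1 with 100 ng/mL RANKL added, and 1 with both RANKL and 1 ng/mL IL-3 added. The fourth library was made from *Stat5* cKO cells (*Stat5* fl/fl;Mx1-Cre) given all 3 cytokines at those doses. Mx1-Cre is switched on by interferon in many cell types, and poly(I:C) was injected to induce it. Per the methods the floxed littermates without Cre received poly(I:C) too. The labels give male C57BL/6 mice aged 8 weeks, whereas the methods give a younger age for the osteoclast cultures. How many mice stood behind a library is not given in the sources used here.

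Glutamine is the most abundant free amino acid of blood and carries nitrogen between tissues. Glutamine synthetase makes it from glutamate and ammonia. In breakdown it becomes glutamate again, and glutamate dehydrogenase or the transaminases then convert glutamate to 2-oxoglutarate, which enters the citrate cycle. Macrophages express glutamine synthetase, and osteoclast formation is known to draw on imported glutamine.

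The depth was estimated from the spacing of low values at 33.05, 34.95, 36.85 and 36.85 M fragments for M-CSF, RANKL, RANKL with IL-3 and cKO. All lists of 4 values below keep that order. *Stat5a* stood at 9.89, 10.8, 12.0 and 0.17 FPKM, and *Stat5b* at 10.8, 7.80, 8.86 and 0.19 FPKM, so the library labelled cKO nearly lacked both deleted genes. All 4 libraries are labelled as osteoclasts in part of their labels. The summed FPKM of the osteoclast markers was 45.9, 1277, 141 and 518, with *Calcr*, the calcitonin receptor, at 0, and 8 of 10 markers reached 1 FPKM. The 10 macrophage markers summed to 3874, 1262, 2380 and 1360 FPKM, the dendritic cell markers to 249.6, 167, 720.1 and 179.5 FPKM, and the neutrophil markers to 1314, 751, 1093 and 782 FPKM. Lymphocyte, stromal, basophil and mast cell, and erythroid markers summed to at most 4.25 FPKM each. The macrophage, osteoclast, dendritic cell and neutrophil marker sums move with each comparison below, and their part in the results was not tested.

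*Glul* encodes glutamine synthetase and is the member whose level stood furthest apart in the cKO library. Its level was 93.8 FPKM in M-CSF alone, 129 after RANKL, 105 after RANKL plus IL-3, and 18.3 in the cKO library. The 3 control libraries lay within 1.38-fold of each other, and the cKO library lay 5.13-fold below the lowest of them. Among the 10763 genes that reached 1 FPKM in at least 1 library, *Glul* ranked 820, 590 and 751 from the highest level in the control libraries and 4107 in the cKO library. The cKO value rests on an estimated 1882 fragments, with a 95% counting interval of 17.5 to 19.1 FPKM. None of the 4 intervals of *Glul* overlapped another. These intervals cover counting error only and leave out the variation between mice and cultures, which 1 library per condition cannot show. In such bulk samples fewer cells that express a gene and less RNA per cell cannot be told apart.

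Ratios between libraries were taken on the log2(FPKM + 1) scale. Below, "with RANKL" means RANKL set against M-CSF alone, "with IL-3" means RANKL plus IL-3 set against RANKL, and the cKO comparison sets the genotypes side by side under RANKL plus IL-3, the control genotype being the base. For *Glul* the ratio was 0.46 with RANKL, -0.30 with IL-3 and -2.46 in the cKO comparison. The last is a 5.75-fold lower level, rank 66 from the lowest ratio of the 10763 genes. *Glul* thus stood between the extremes of all genes in the cytokine comparisons and near the low end in the comparison of genotypes. The first and second comparison share the RANKL library, and the second and the cKO comparison share the library with RANKL and IL-3.

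**Figure D1:**
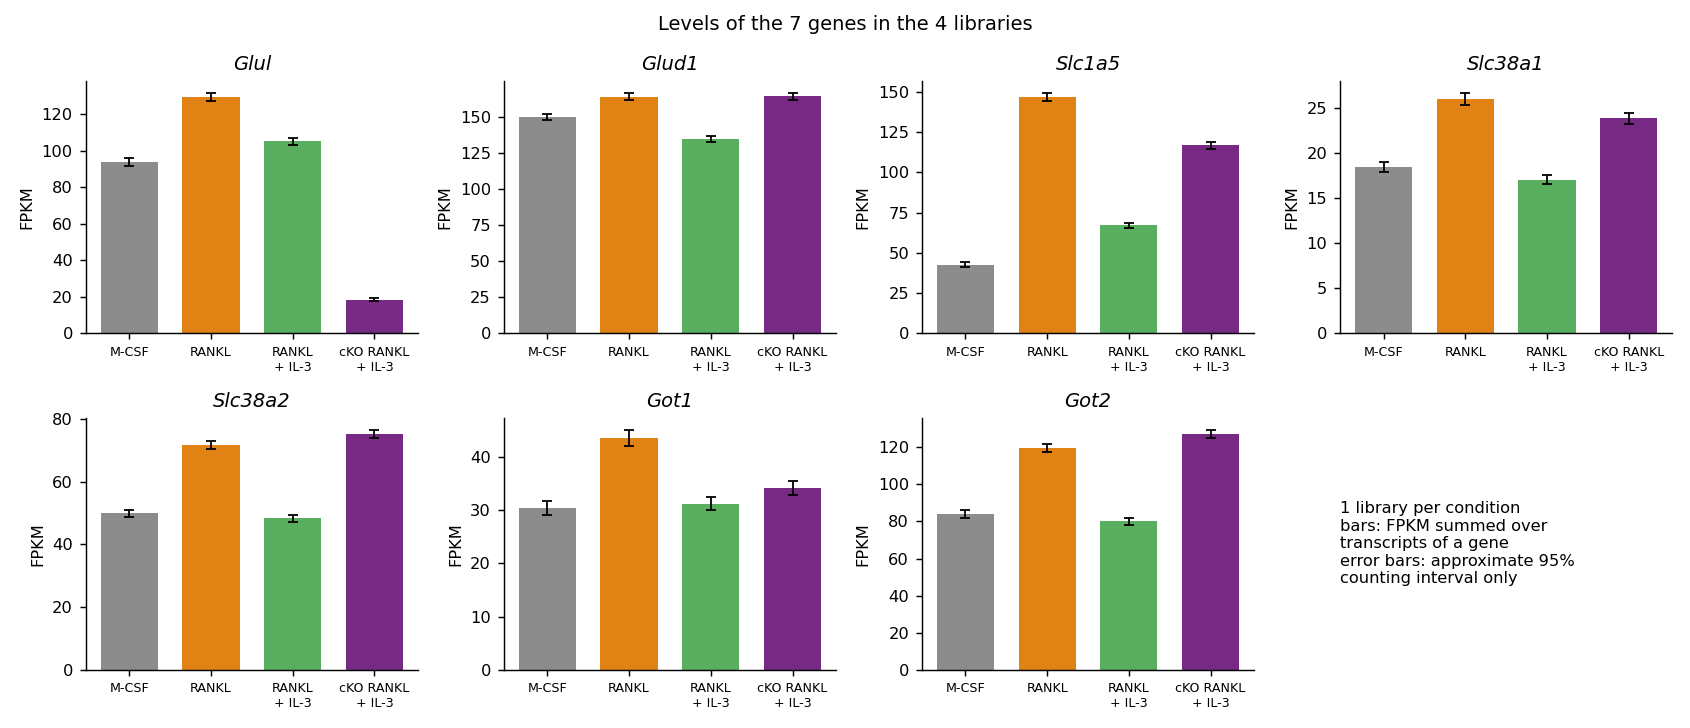
FPKM of the 7 genes in the 4 libraries, with 1 panel per gene (linear axes from 0, each with its own range) and 1 bar per library with its 95% counting interval. *Glul* ranges from 93.8 to 129 FPKM over the 3 control libraries and is at 18.3 FPKM in the cKO library, while the other members of the cKO library lie within or just above the control range.

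*Glul* lies on chromosome 1 (153899929 to 153909723, GRCm38.p6, plus strand), and its single transcript in the table has 7 exons and 2792 nt. Promoter sequence is shown for *Glul*, whose level stood apart in the cKO library, and for *Got1*, because these are the members with a CCAAT box in the window. The 250 bases before the RefSeq start were searched on both strands. Capitals mark CCAAT, which reads as ATTGG on the other strand, and, in *Got1*, the letters TTGCATCA, which match TGATGNAA, a C/EBP-ATF composite element that ATF4 can bind. In *Got1* these letters directly follow 1 of the CCAAT boxes. Each sequence is written 5′ to 3′ on the strand of its gene.
Glul, chr1:153899679-153899928, plus strand: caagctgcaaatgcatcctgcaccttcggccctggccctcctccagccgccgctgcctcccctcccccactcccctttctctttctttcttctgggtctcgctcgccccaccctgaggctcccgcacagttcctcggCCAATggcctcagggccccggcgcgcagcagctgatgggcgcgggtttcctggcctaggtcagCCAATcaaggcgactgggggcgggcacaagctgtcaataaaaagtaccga
Got1, chr19:43524606-43524855, minus strand: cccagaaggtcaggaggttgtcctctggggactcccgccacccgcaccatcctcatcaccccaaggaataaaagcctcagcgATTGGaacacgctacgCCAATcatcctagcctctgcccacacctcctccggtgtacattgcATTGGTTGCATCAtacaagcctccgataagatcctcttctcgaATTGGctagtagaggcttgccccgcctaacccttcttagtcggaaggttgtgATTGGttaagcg

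The RefSeq promoter table (GRCm38.p6) held 5 of the 7 members, namely *Glul*, *Glud1*, *Slc38a2*, *Got1* and *Got2*, and 32851 promoters in all. *Slc1a5* and *Slc38a1* were not matched. *Glul* held 2 CCAAT boxes, 113 and 50 bases before the start, and *Got1* held 5. Of all promoters 33.8% held at least 1. TGATGNAA was found once, in *Got1*, 102 bases before the start, against 3.45% of all promoters. The STAT letters TTCNNNGAA were in 0 of the 5 members and in 7.02% of all promoters. The E-box CACGTG (6.02% of all promoters) and the AP-1 letters TGANTCA (6.75%) were also in 0 of the 5. GGGCGG, the core of Sp1 sites, occurred once in *Glul*, once in *Slc38a2* and 3 times in *Glud1*, and in 32.7% of all promoters. The GC content was 64.8% for *Glul* and 54.4% for *Got1*, with a median of 52.4% over all promoters. A match describes letters and not a bound site, and a window without a match says only that these letters are not in it.

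*Glud1* encodes mitochondrial glutamate dehydrogenase, which releases ammonia from glutamate (chromosome 14, 34310727 to 34345033). Its FPKM was 149.5, 164, 135 and 164, the highest of the 7 genes in each library. The counting intervals of the RANKL and cKO libraries overlapped, and the library with RANKL and IL-3 was the lowest. The log2 ratios were 0.13, -0.28 and 0.28, none of them 2-fold. An annotated pseudogene resembles *Glud1*. How reads shared with it were assigned is not given in the sources used here, so the level of *Glud1* is uncertain to that extent.

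Because *Glul* and *Glud1* run glutamate in different directions, their levels were also set against each other within each library. The FPKM of *Glul* was 0.627, 0.789 and 0.781 times that of *Glud1* in the control libraries and 0.112 times in the cKO library. *Glul* thus lay below *Glud1* in all 4 libraries, and furthest below it in the cKO library.

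*Got1* and *Got2* encode the cytosolic and the mitochondrial aspartate transaminase, which exchange an amino group between glutamate and oxaloacetate. *Got1* (chromosome 19, 43499752 to 43524605) stood at 30.4, 43.6, 31.2 and 34.1 FPKM. The RANKL library was the highest, and the intervals of the M-CSF library and of the library with RANKL and IL-3 overlapped. *Got2* (chromosome 8, 95864133 to 95888401) stood at 83.9, 119.7, 80.1 and 127 FPKM, with the cKO library the highest. The M-CSF interval of *Got2* began at 82.0 FPKM, where the interval for RANKL with IL-3 ended. An annotated pseudogene resembles *Got2* as well, with the same limit as for *Glud1*.

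The log2 ratios of *Got1* were 0.51, -0.47 and 0.12, and those of *Got2* were 0.51, -0.57 and 0.66. The transaminases thus had near-equal ratios for RANKL and unlike ratios between genotypes. Within a library, *Got2* stood 2.77, 2.75 and 2.57 times as high as *Got1* in the control libraries and 3.73 times as high in the cKO library.

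*Slc1a5* encodes ASCT2, a sodium-dependent exchanger that imports glutamine (chromosome 7, 16781334 to 16798274), and differed most between the cytokine conditions. Its level was 42.6 FPKM in M-CSF alone, 147 after RANKL, 67.0 after RANKL plus IL-3, and 117 in the cKO library. The 4 counting intervals did not overlap. The level with RANKL was 3.45-fold that with M-CSF (log2 ratio 1.76, rank 163 from the highest of 10763 genes). With IL-3 added it was 2.19-fold lower (log2 ratio -1.12, rank 284 from the lowest). The cKO library stood 1.74-fold above the *Stat5* fl/fl library with the same cytokines (log2 ratio 0.79, rank 412 from the highest), short of 2-fold.

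On the FPKM scale the library with RANKL and IL-3 had covered 23.3% of the distance of *Slc1a5* from the M-CSF to the RANKL library, and the cKO library 71.2%. The osteoclast markers kept the same order of libraries in their summed FPKM, from 45.9 with M-CSF through 141 and 518 to 1277 with RANKL. Their part in the level of *Slc1a5* was not tested.

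*Slc38a1* and *Slc38a2* encode SNAT1 and SNAT2, sodium-coupled transporters of small neutral amino acids that lie next to each other on chromosome 15 (96571418 to 96643438 and 96687392 to 96699728). *Slc38a1* stood at 18.5, 26.0, 17.0 and 23.8 FPKM, with none of the 4 intervals overlapping. *Slc38a2*, known to be induced by amino acid shortage, stood at 50.0, 71.9, 48.4 and 75.3 FPKM. Its intervals overlapped between M-CSF and RANKL with IL-3. In both genes RANKL alone and the cKO library were the 2 highest of the 4.

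The log2 ratios were 0.47, -0.58 and 0.46 for *Slc38a1* and 0.51, -0.56 and 0.63 for *Slc38a2*. These neighbouring genes kept a near-constant proportion, *Slc38a2* being 2.71, 2.76, 2.84 and 3.16 times as high as *Slc38a1*. *Slc1a5* in contrast was 0.852, 2.05, 1.39 and 1.55 times as high as *Slc38a2*, below it only with M-CSF alone. *Slc38a1* is the member with several transcripts in the table. Its transcript of 7266 nt stood at 9.12, 12.0, 6.17 and 11.4 FPKM and that of 6966 nt at 7.78, 10.8, 9.82 and 10.2 FPKM, so the more abundant form differed between libraries. The form of 3183 nt stood at 1.58, 3.19, 1.05 and 2.29 FPKM. The split between forms is an estimate of the authors' software.

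**Figure D2:**
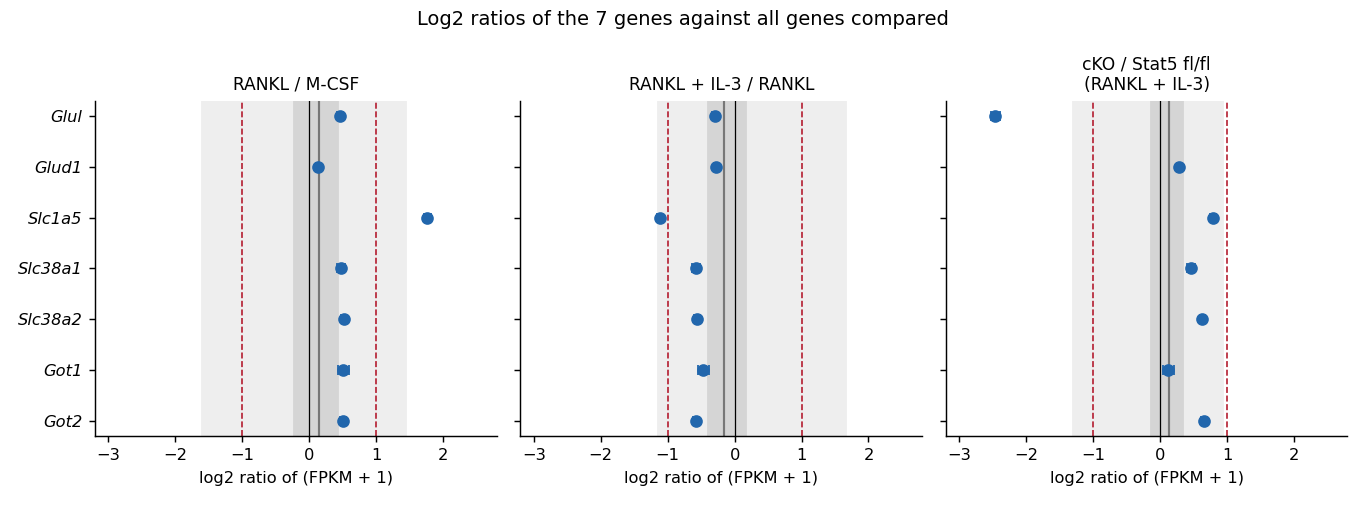
log2 ratio of FPKM + 1 for the 7 genes in the 3 comparisons, 1 point per gene with its 95% counting interval, over grey bands for the middle 95% and the interquartile range of all 10763 genes, a grey line at their median, a black line at 0 and dashed lines at 2-fold. *Slc1a5* passes 2-fold with RANKL (1.76) and with IL-3 (-1.12), and *Glul* in the cKO comparison (-2.46).

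Over the 7 genes, 1 (*Slc1a5*) was at least 2-fold higher with RANKL than with M-CSF and 0 were 2-fold lower. Of all genes 5.44% were 2-fold higher and 6.88% 2-fold lower. All 7 had a ratio above 0, as did 61.0% of all genes, and their median was 0.51 against 0.14 over all genes. With IL-3, 1 member (*Slc1a5*) was 2-fold lower and 0 were 2-fold higher, where 3.47% of all genes were lower and 6.11% higher. With libraries scaled by the median ratio this count was 0, as *Slc1a5* came to -0.94. All 7 ratios lay below 0, as did 64.0% of all genes, with a median of -0.56 against -0.15 over all genes. In the cKO comparison 1 member (*Glul*) was 2-fold lower and 0 were 2-fold higher, where 4.28% of all genes were lower and 2.11% higher. The median was 0.46 against 0.13 over all genes, and 6 of the 7 ratios lay above 0, as did 64.4% of all genes.

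The medians over all genes are shifts that the ratios above contain. Relative to them *Glud1* lay slightly below the typical gene with RANKL and *Got1* slightly below it in the cKO comparison, and the other 19 of 21 ratios kept their sign. When libraries were scaled so that these medians were near 0, the split of all genes that were 2-fold higher and lower changed from 585 and 740 to 435 and 937 with RANKL. It changed from 658 and 373 to 818 and 270 with IL-3.

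In the cKO library 1 member, *Glul*, stood at least 2-fold below all 3 control libraries and 0 stood 2-fold above them. Of all genes 0.0743%, or 8, were below all controls and 0.13%, or 14, above them. *Glul* had the fourth largest distance of the 8, and the list also holds *Stat5a* and *Stat5b*. The remaining 6 members had ratios of 0.12 to 0.79 between the genotypes, with a median of 0.55. They were highest in the cKO library (*Glud1*, *Slc38a2*, *Got2*) or second to RANKL (*Slc1a5*, *Slc38a1*, *Got1*).

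The wider pathway was described with 6 lists of 66 genes, 46 of which reached 1 FPKM. With RANKL, 6 of the 46 were 2-fold higher and 3 lower, with a median log2 ratio of 0.43, where 5.44% of all genes were higher and 6.88% lower with a median of 0.14. With IL-3, 4 were higher and 0 lower, with a median of -0.21, where 6.11% of all genes were higher and 3.47% lower with a median of -0.15. In the cKO comparison 0 were higher and 1 was lower, with a median of 0.14. Of all genes 2.11% were higher and 4.28% lower, with a median of 0.13. Pooled, the 46 genes thus lay near the background there, but the lists differed in direction. The other carriers of glutamine and glutamate had a median of -0.53, with 9 of 11 below 0. The glutamine amidotransferases had a median of 0.51, with 8 of 9 above 0. Of all genes 35.6% lay below 0 and 64.4% above 0. None of the 46 stood 2-fold apart from all 3 controls in the cKO library, where 0.0743% of all genes were below and 0.13% above. A count of 0 thus lies near the background. The lowest was *Slc38a6*, at -0.11 on the log2 scale against its lowest control.

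The glutamine amidotransferases take the amide nitrogen of glutamine for nucleotides, asparagine and amino sugars, and 9 of 10 reached 1 FPKM. With RANKL 4 of the 9 were 2-fold higher and 0 lower, against 5.44% and 6.88% of all genes, and their median was 0.89 against 0.14. *Cad*, which starts pyrimidine synthesis, stood at 17.2, 39.8, 20.4 and 35.3 FPKM, and *Ctps*, the CTP synthase, at 17.4, 35.9, 18.3 and 33.8 FPKM. *Pfas*, of purine synthesis, stood at 9.20, 20.9, 10.1 and 19.0 FPKM, and *Asns*, the asparagine synthetase, at 7.93, 19.4, 13.5 and 19.6 FPKM. These 4 genes shared the order of the libraries only in part, since the cKO library was the highest for *Asns* and second to RANKL for the others. None of the 9 was 2-fold apart with IL-3 (median -0.59 against -0.15), where 6.11% of all genes were higher and 3.47% lower. The same held in the cKO comparison (median 0.51 against 0.13), where 2.11% were higher and 4.28% lower. Both counts lay near the background.

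Among the other carriers of glutamine and glutamate 11 of 23 reached 1 FPKM. Their medians were -0.25, 0.20 and -0.53, against 0.14, -0.15 and 0.13 over all genes. With RANKL 1 of the 11 was 2-fold higher and 3 were lower, against 5.44% and 6.88% of all genes. With IL-3 4 were higher and 0 lower, against 6.11% and 3.47%. In the cKO comparison 0 were higher and 1 was lower, against 2.11% and 4.28%. The light chain *Slc7a5* (LAT1), which exchanges glutamine for leucine, stood at 21.1, 47.6, 24.3 and 47.7 FPKM and was 2-fold higher with RANKL. Its heavy chain *Slc3a2*, shared with several light chains, stood at 199.6, 73.6, 159.6 and 103 FPKM, 2-fold lower with RANKL and 2-fold higher with IL-3. *Slc3a2* and *Slc7a5* thus differed in opposite directions in the cytokine comparisons.

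Of the other light chains, *Slc7a8* (LAT2) stood at 213, 38.7, 145 and 74.4 FPKM and *Slc7a7* (y+LAT1) at 30.9, 4.14, 13.6 and 9.12 FPKM. Both were 2-fold lower with RANKL and 2-fold higher with IL-3, and under 2-fold apart in the cKO comparison. Their ratios had the same sign as those of the heavy chain in the 3 comparisons. *Slc7a6* (y+LAT2), at 9.48, 15.0, 8.23 and 13.4 FPKM, had ratios of the opposite sign, none of them 2-fold. *Slc7a11*, the cystine-glutamate exchanger, stood at 2.06, 1.56, 9.49 and 1.46 FPKM. It was 2-fold higher with IL-3 and the 1 pathway gene 2-fold lower in the cKO comparison (log2 ratio -2.09). Unlike *Glul*, *Slc7a11* in the cKO library stood close to the levels without IL-3.

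The remaining lists held 1 gene that passed 2-fold, *Ccbl1*, a kynurenine and glutamine transaminase, at 0.85, 2.73, 1.73 and 2.04 FPKM. It passed only with RANKL (log2 ratio 1.01), where 5.44% of all genes were 2-fold higher and 6.88% lower. Its level with M-CSF lay below 1 FPKM. Of the other transaminases 7 of 12 reached 1 FPKM, with medians of 0.57, -0.11 and -0.02 against 0.14, -0.15 and 0.13 over all genes. *Bcat2*, the mitochondrial branched-chain transaminase, stood at 27.5, 44.5, 41.0 and 40.4 FPKM. The 5 measured genes between proline and glutamate had medians of 0.58, -0.33 and 0.30, with *Prodh*, the proline dehydrogenase, at 2.90, 6.56, 2.94 and 4.48 FPKM.

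The 6 measured genes of the malate-aspartate shuttle and of mitochondrial glutamate carriers had medians of 0.23, -0.14 and 0.15. Over all genes the medians were 0.14, -0.15 and 0.13. *Got1* and *Got2* also act in the shuttle. *Mdh2*, the mitochondrial malate dehydrogenase, stood at 244, 429.9, 311 and 382 FPKM, and *Slc25a12*, an aspartate-glutamate carrier, at 36.1, 24.9, 35.9 and 29.3 FPKM. The 8 enzymes that make or use 2-oxoglutarate had medians of 0.55, -0.33 and 0.17. *Idh3a*, of the citrate cycle, stood at 41.6, 81.4, 47.6 and 73.0 FPKM. *Idh1*, the cytosolic isocitrate dehydrogenase, stood at 59.5, 37.2, 68.6 and 38.3 FPKM. *Idh1* and *Slc25a12* therefore ran in the direction opposite to the medians of their lists.

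**Figure D3:**
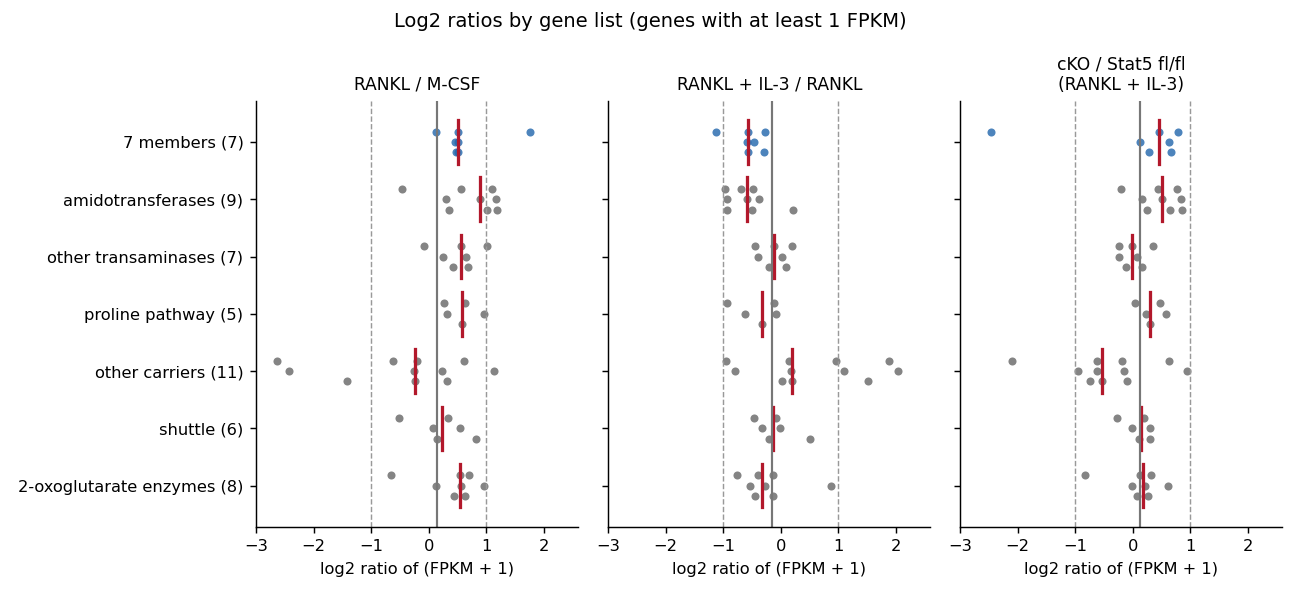
log2 ratio of FPKM + 1 for the 7 members and for each measured gene of the 6 pathway lists in the 3 comparisons, 1 point per gene, with a short red line at the median of each list, a grey line at the median of all 10763 genes and dashed lines at 2-fold. The amidotransferases have medians of 0.89, -0.59 and 0.51, and *Glul* and *Slc7a11* lie apart at the low end of the cKO comparison.

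Since *Glul* was lower in the library with *Stat5a* and *Stat5b* deleted, 4 genes within 1 Mb of it that reached 1 FPKM are described. They are not all the genes measured there, so no share is drawn from them. *Rgs16*, a regulator of G protein signalling, stood at 0.17, 6.70, 0.30 and 66.9 FPKM. Its lower coordinate lies at -159.6 kb from that of *Glul*.

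*Npl*, of sialic acid breakdown, stood at 5.5, 2.82, 7.19 and 27.9 FPKM. *Dhx9*, an RNA helicase, stood at 53.4, 81.7, 51.9 and 74.4 FPKM, highest with RANKL. The laminin gene *Lamc1* stood at 18.1, 38.8, 17.1 and 45.1 FPKM. *Rgs16*, *Npl* and *Lamc1* thus had their highest level in the cKO library, where *Glul* had its lowest.

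**Figure D4:**
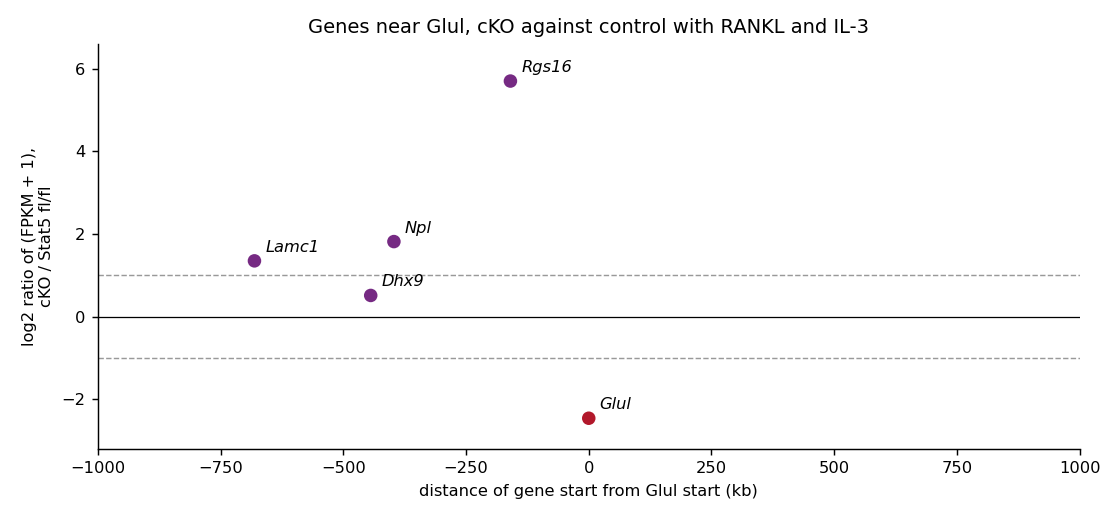
log2 ratio of FPKM + 1 in the cKO comparison for *Glul* and the 4 genes described around it, by distance of the lower coordinate of each gene from that of *Glul* in kb, with dashed lines at 2-fold. *Glul* is at -2.46, *Rgs16* at 5.70 and *Npl* at 1.82.

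The genes whose pattern over the 4 libraries was most like that of *Glul* were sought among 8137 genes, by the root mean square difference of log2(FPKM + 1) after each gene was centred on its own mean. They were *Fblim1*, a filamin-binding adaptor (difference 0.121), at 13.1, 15.6, 12.0 and 1.31 FPKM, and then *Stat5a* and *Stat5b* (0.398 each). The last 2 are the deleted genes, so any gene far lower in the cKO library alone lies near them by this measure. For *Slc1a5* they were *Nfat5*, the factor of the osmotic stress response (0.0549), at 3.77, 13.6, 5.92 and 10.9 FPKM, *Fam195a* (0.0614) and *Gsdmd*, the pore-forming gasdermin D (0.0631), at 33.5, 117, 48.6 and 95.6 FPKM. The highest and lowest library of the other members lay under 2-fold apart, and no likeness was computed for them. Likeness over 4 libraries is a description of these libraries.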

How the data were processed

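TruSeq RNA libraries were run on a HiSeq2000. Reads were placed on mm10 by TopHat2 2.0.13, and Cufflinks 2.2.1 gave a value for each RefSeq transcript, as the methods and the submitters' processing notes state. The unit is not written in the 1 deposited table. The deposited values were read as FPKM from the software and because they are not whole, are never negative and have sums that differ between libraries. Each column was assigned through its sample label.

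The members and the gene lists were chosen with earlier results of these data known. Transcripts were summed per gene ID, giving 23920 genes from 33170 transcripts. Small RNA genes were left out, and the 10763 genes reaching 1 FPKM in any library were compared on log2(FPKM + 1). A gene counted as apart from 2-fold upwards. Since each condition has 1 library, no p-value or standard error was computed and no replicate could be left out.

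Depth was estimated from single-transcript genes of at least 3000 nt, whose low values come in multiples of what 1 fragment is worth. A share of 71.9% to 73.6% of them fell no further than 0.2 of a multiple from a whole one, against 40% for even spacing, although the multiple was fitted on these values. The 95% counting intervals of the levels use exact Poisson limits at this depth. Those of the ratios use a normal approximation from the estimated fragments of both libraries. All of them cover counting error only.

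Named genes were all members, up to 4 genes per pathway list with the largest ratios and other genes of the lists that were 2-fold apart, 4 genes within 1 Mb of *Glul*, and the 3 genes most like each member whose libraries differ 2-fold, among genes with at least 5 FPKM. *Slc38a6*, *Slc7a6* and the genes of the closing observations were chosen after their values were seen. Some genes that the rule takes are not reported here. Positions and promoters are from RefSeq (GRCm38.p6), the assembly also called mm10. Calculations used scipy 1.17.1, pandas 2.3.3, numpy 2.4.6 and, for plots, matplotlib 3.10.9 under Python 3.11.15, and were tested on simulated data. Alternatives were another pseudocount, scalings, thresholds, minimums, small RNA genes kept, and the most abundant transcript.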

Additional observations from a re-analysis of the deposited data

How the results depend on the processing

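Limits of 1 library per condition hold for every value: no replicate can be left out, and no paired analysis was possible because each condition has 1 library. The 2-fold counts of members stayed as reported with a pseudocount of 0.1 FPKM, upper quartile scaling and the most abundant transcript. With median scaling the count of members apart with IL-3 was 0 in place of 1, as *Slc1a5* came to -0.94. At a 1.5-fold threshold 4 members were apart in the cKO comparison, *Glul* lower and *Slc1a5*, *Slc38a2* and *Got2* higher. Of the 10763 genes compared, 907 were higher and 957 lower there. At 4-fold the count was 0 for RANKL and 0 for IL-3, while *Glul* passed in the cKO comparison. Of the 10763 genes, 124 were higher and 162 lower at 4-fold with RANKL, and 175 and 74 with IL-3. In the cKO comparison these were 34 and 108. Of the 21 member ratios 2 changed sign with median scaling, *Glud1* with RANKL (-0.03) and *Got1* in the cKO comparison (-0.01), and 0 changed sign with the pseudocount, upper quartile scaling or the most abundant transcript. The largest move was 0.33, for *Slc38a1* with its most abundant transcript.

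Over all genes the counts moved by more than 1.5 times in these cases. With a pseudocount of 0.1 FPKM, 560 genes in place of 373 were lower with IL-3, and 379 in place of 227 were higher in the cKO comparison. At 1.5-fold, 1680 were higher and 1491 lower with RANKL, 1303 and 1371 with IL-3, and 907 and 957 in the cKO comparison. At 4-fold these were 124 and 162, 175 and 74, and 34 and 108.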

Other observations

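The 8 genes at least 2-fold below all 3 control libraries in the cKO library were *Stat5a*, *Stat5b*, *Fblim1*, *Padi4*, *Plod1*, *Glul*, *Marco* and *Chst10*. Of these 3 lie on chromosome 1 (*Glul*, *Marco*, *Chst10*), 3 on chromosome 4 (*Fblim1*, *Padi4*, *Plod1*) and 2 on chromosome 11 (*Stat5a*, *Stat5b*). On chromosome 4 the lower coordinates were 140745508 (*Padi4*), 141576062 (*Fblim1*) and 147909753 (*Plod1*). On chromosome 1 they were 38863867 (*Chst10*), 120474538 (*Marco*) and 153899929 (*Glul*). The share of all compared genes on each chromosome was not computed. No test was made on these positions.

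The small RNA gene *Mir8114*, which overlaps the first exon of *Glul* (chromosome 1, 153899926 to 153900036), had 255 FPKM with M-CSF and was listed at 0 in the other 3 libraries. FPKM of such short transcripts is unstable, and the value was not used.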
